A study of Mus musculus with 220 samples.

Results

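The genes described here are the 51 listed genes, of 24049 in the table, whose products bring proteins into the endoplasmic reticulum, fold them there and pass them on towards the Golgi. They were listed by name and role, with earlier results of these data known, and are grouped into 5 steps. Targeting and translocation has 15 genes, signal peptidase 5, glycan transfer 7, chaperones and folding 17, and cargo receptors 7. All 51 had a row in the table. Their levels were followed across single endothelial cells of lymph nodes of C57BL/6 mice, sorted by flow cytometry as high endothelial cells (HEC) or blood endothelial cells (BEC), captured on the Fluidigm C1 system and sequenced as 1 Nextera XT library per cell. Inflamed HEC (65 cells) came from mice treated on the skin with 4% oxazolone, a contact sensitiser, and harvested on day 3. Dedifferentiated HEC (44 cells) came from mice given a single intraperitoneal injection of LTBR-Ig, a decoy receptor that binds the ligands of the lymphotoxin β receptor, and harvested on day 7. Homeostatic HEC (79 cells) and BEC (32 cells), which are the other endothelial cells of the blood vessels, came from untreated mice. No genetic change is named for any group, and the age of the mice, how many there were and which cell came from which mouse are not stated in the labels.

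High endothelial cells line the venules through which lymphocytes enter lymph nodes from the blood. They make large amounts of secreted and surface glycoproteins, among them the mucin-like protein encoded by Glycam1, a carrier of the sugar ligands of L-selectin. Such proteins are recognised by the signal recognition particle as their signal peptide leaves the ribosome, enter the endoplasmic reticulum through the Sec61 channel, lose the signal peptide to signal peptidase and receive N-linked glycans from oligosaccharyltransferase. Chaperones and disulfide isomerases fold them, and p24 family cargo receptors and KDEL receptors sort cargo that leaves from residents that are returned. When unfolded protein accumulates, the unfolded protein response, in part through the transcription factor Xbp1, raises many of these genes.

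Values are FPKM, fragment numbers divided by transcript length and by the fragments of the cell, so that levels of different genes can be set side by side. Group levels are means over cells of log2(FPKM + 1) with the SD over cells, and a difference between groups is a difference of these means. A gene is called higher or lower where that difference is 1 or more in size. Each library is 1 cell and no mouse is named for any, so each group counts as 1 sample. No p-value or standard error was therefore computed, and no difference below could be set against the spread between mice. The inflamed cells 43 and 60 were near-identical (Pearson r 0.986 over log2 levels, where the next pair had 0.648), and their mean was counted as 1 cell. This left 64 inflamed HEC and 219 cells.

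Cells had a median of 3961 genes with an FPKM of at least 1 in inflamed HEC, 3075 in dedifferentiated HEC, 3842 in homeostatic HEC and 2870.5 in BEC. Depth, approximated from the spacing of low FPKM values, ran from 716000 to 3545000 fragments per cell over the 4 groups. The median cell gave 20.8% of its summed FPKM to Glycam1 and the chemokine Ccl21a in homeostatic HEC and 0.0290% in BEC, so values of other genes share unequal parts of each cell's total. All 7 high endothelial markers examined, Glycam1 among them, were higher in homeostatic HEC than in BEC, so the labels and the markers matched. Cells with 3 or more markers of another cell type at an FPKM of 10 numbered 3 inflamed HEC, 1 dedifferentiated HEC, 7 homeostatic HEC and 1 BEC. Plasma cell markers, relevant because plasma cells express many of these genes strongly, summed to a median FPKM of 0 in each HEC group and 0.325 in BEC, and 2 of the 7 in the table were at 0 in every cell.

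Promoter sequence was examined first for what the 51 genes share beyond function. The endoplasmic reticulum stress response element, the letters CCAAT, then any 9 bases, then CCACG, on either strand, is bound by the transcription factors of the unfolded protein response. It was found in the 250 bases before the RefSeq start (GRCm38.p6) of 7 of the 39 listed genes with an entry, or 17.9%, against 35 of all 27025 genes, or 0.130%. All 7 belong to the chaperone and folding step. Their sites are shown because they set these genes apart within the list, and each is read 5′ to 3′ in the direction of the motif, with the fixed letters of the element in capitals.
Hspa5 (chr2:34772019-34772048, plus strand): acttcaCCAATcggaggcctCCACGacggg
Hsp90b1, site nearer the start (chr10:86705527-86705556, plus strand): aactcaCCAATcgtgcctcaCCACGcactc
Hsp90b1, site farther from the start (chr10:86705633-86705662, minus strand): acaagcCCAATcgcaaggagCCACGcttcg
Calr (chr8:84847069-84847098, plus strand): tatgggCCAATgagggtcgaCCACGcgttg
Canx (chr11:50325795-50325824, minus strand): tattgaCCAATcaccacgctCCACGaagaa
Pdia6 (chr12:17266485-17266514, plus strand): cagagaCCAATgaaaggcggCCACGgcgtg
Dnajc3 (chr14:118937821-118937850, plus strand): ccacaaCCAATcagcgccaaCCACGacccg
Creld2 (chr15:88819515-88819544, minus strand): tgtggaCCAATtgaggctcgCCACGagaag
The Hspa5 element lies 65 to 47 bases before the start, nearest of the 8, and the farther Hsp90b1 element lies 212 to 194 bases before it. A second motif, the letters TGACGTGG on either strand, was found in 1 listed gene, Kdelr3, and in 163 of 27025 genes, or 0.603%. No listed gene had both motifs. A match of letters is a description of the sequence and does not show that a factor binds there.

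The calnexin gene Canx had the highest median level of the 51 genes in every group, with 587 FPKM in inflamed HEC, 695 in dedifferentiated HEC, 732 in homeostatic HEC and 443 in BEC. Dad1, a small subunit of oligosaccharyltransferase, came next in all 3 HEC groups, with medians of 434 FPKM in inflamed, 528 in dedifferentiated and 507 in homeostatic HEC, against 57 in BEC. The ranges over cells overlapped between every pair of groups for all 51 genes. At the low end, Kdelr3, the least detected KDEL receptor gene, reached an FPKM of 1 in 13 of 64 inflamed, 6 of 44 dedifferentiated and 15 of 79 homeostatic HEC. It was listed at 0 in all 32 BEC (exact Clopper-Pearson 95% interval 0 to 10.9%, which covers counting of cells only).

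Homeostatic HEC and BEC were compared to ask which of these genes mark the high endothelial state in untreated nodes. Genes of every step were higher in homeostatic HEC, and none was lower by 1 or more. The cargo receptor gene Tmed3 differed most of the 51. Signal peptidase and glycan transfer genes were the most completely shifted, with 5 of 5 and 6 of 7 higher. In all, 33 of 51 (64.7%) were higher, against 17% of the 9248 genes tested, those that reached an FPKM of 1 in over 10% of a group's cells. None was lower, against 4.4%. Among better detected genes, which reached that FPKM in 50% of a group's cells, 31 of 41 listed genes were higher and none lower, against 38% and 9.02% of 3070. Either filter, here and in the comparisons below, let a gene in through 1 group alone. Sil1 and Kdelr3 passed the first only through homeostatic HEC, as Tmed3 and Sec11c did the second. Such genes enter because they are high in 1 group, so these counts are descriptions only. The filter was the same for all genes tested. The median difference of the 51 genes was 1.34, or 1.06 above the median of 0.28 over all genes tested, and 50 of 51 differences were positive.

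**Figure D1:**
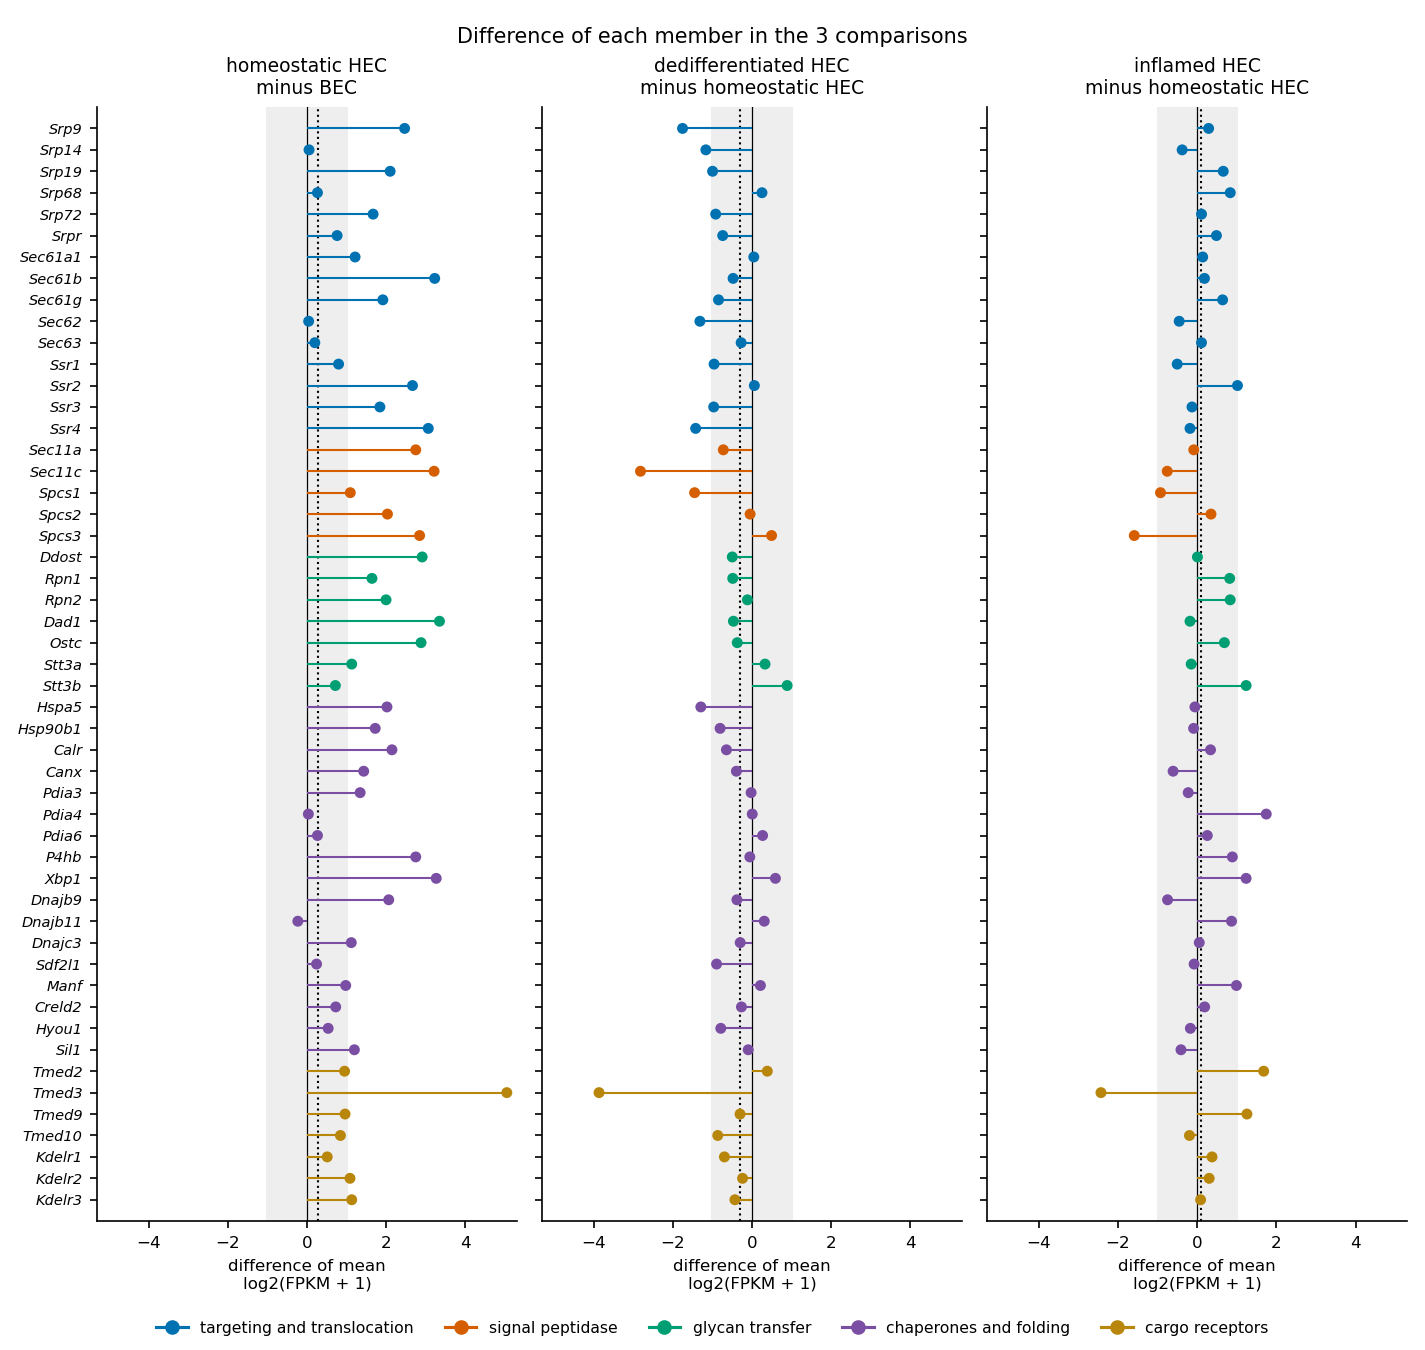
Difference between groups in mean log2(FPKM + 1) for each of the 51 genes (1 row a gene, ordered by step), in the 3 comparisons, with a grey band from -1 to 1 and a dotted line at the median of all genes tested. In homeostatic HEC against BEC 33 genes lie at 1 or beyond, while in both comparisons of treated with homeostatic HEC most genes lie within the band and Tmed3 lies far to the left.

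Of the cargo receptor genes, Tmed3 (chromosome 9, bases 89699206 to 89705068, minus strand, GRCm38) encodes a p24 family protein of vesicles between the endoplasmic reticulum and the Golgi. Its lowest, median and highest FPKM were 0, 288 and 1634 in homeostatic HEC, against 0, 0.37 and 1038 in BEC. It reached an FPKM of 1 in 73 of 79 homeostatic HEC and 10 of 32 BEC, and the means differed by 5.05 (6.96 ± 2.96 in homeostatic HEC and 1.91 ± 3.09 in BEC, SD over 79 and 32 cells). Most homeostatic cells thus lay above the typical BEC, and the highest BEC still lay within the homeostatic range. The other 3 listed p24 genes were also above BEC, but by less than 1. Tmed2 differed by 0.95, Tmed9 by 0.96 and Tmed10 by 0.84. Of the KDEL receptors, which return resident proteins from the Golgi, Kdelr2 was present in nearly every cell, with 2.85, 296 and 906 FPKM in homeostatic HEC, against 0.85, 191 and 553 in BEC (difference 1.09). Kdelr1 differed by 0.51, and Kdelr3 was counted as higher with a mean of 1.13 against a group listed at 0.

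In signal peptidase, the catalytic subunits are encoded by Sec11a and Sec11c. Sec11c (chromosome 18, bases 65800515 to 65817684, plus strand) had 0, 35.3 and 562 FPKM in homeostatic HEC, against 0, 0 and 460 in BEC, and reached an FPKM of 1 in 62 of 79 homeostatic HEC and 8 of 32 BEC (difference 3.21). Sec11a had 0, 64.5 and 1057 FPKM in homeostatic HEC, against 0, 0.485 and 697 in BEC (difference 2.75). In both genes the median BEC was below 1 FPKM while the median homeostatic cell was at 35 or more. The accessory subunit genes differed by 2.84 for Spcs3, 2.03 for Spcs2 and 1.09 for Spcs1. Exons of Sec11a overlap Nmb on the same strand and Gm16171 on the other, and those of Spcs1 and Spcs3 overlap Glt8d1 and Asb5 on the other strand. Of the 51 genes 20 overlap another gene in this way, 4 of them (Sec11a, Hsp90b1, Manf and Pdia4) on the same strand, and how reads of such genes were divided, or whether counting used strand, is not stated. Among oligosaccharyltransferase genes, Dad1 differed by 3.35, with 3.47, 507 and 2166 FPKM in homeostatic HEC, against 0, 57 and 1587 in BEC. The non-catalytic subunit genes Ddost, Ostc, Rpn2 and Rpn1 differed by 2.91, 2.88, 1.997 and 1.64. The catalytic subunit genes stood lower in this order, with Stt3a, which acts on chains during translocation, at 1.13 and Stt3b, which also acts after it, at 0.72.

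In targeting and translocation, 9 of 15 genes were higher, with a median difference of 1.67. Sec61b, a small subunit of the translocation channel, had 0, 226 and 1084 FPKM in homeostatic HEC, against 0, 14.3 and 814 in BEC (difference 3.23). The other small subunit gene, Sec61g, differed by 1.92, and the pore gene Sec61a1 by 1.21. The 4 Ssr genes encode the translocon-associated protein complex. Ssr4 had 1.16, 365 and 1212 FPKM in homeostatic HEC, against 0, 43.6 and 1216 in BEC (difference 3.06). Ssr2 differed by 2.66, Ssr3 by 1.84 and Ssr1 by 0.80. Within the signal recognition particle the genes were unequal, with Srp9 at 2.47, Srp19 at 2.10 and Srp72 at 1.67, but Srp68 at 0.26 and Srp14, the partner of Srp9, at 0.05. The particle's receptor gene Srpr differed by 0.76. Sec62 and Sec63, which assist chains that enter after translation, were nearly level between the groups, at 0.04 and 0.20.

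Among chaperone and folding genes, 10 of 17 were higher. Xbp1 had 0, 132 and 926 FPKM in homeostatic HEC, against 0, 1.5 and 715 in BEC (difference 3.26). The table has 1 value per gene, so the spliced, active form of Xbp1 RNA could not be told from the unspliced one. Hspa5, which encodes the main Hsp70 chaperone of the organelle (BiP), had 0.9, 332 and 1341 FPKM in homeostatic HEC, against 0.2, 117 and 1099 in BEC (difference 2.02). P4hb, a disulfide isomerase gene, had 0.19, 168 and 1379.9 FPKM in homeostatic HEC, against 0.4, 10.2 and 934 in BEC (difference 2.75). The glycoprotein chaperone genes Calr and Canx and their isomerase partner Pdia3 differed by 2.15, 1.43 and 1.34, and Hsp90b1, the Hsp90 of this organelle, by 1.72. The co-chaperone genes of BiP were split, with Dnajb9 at 2.06, Dnajc3 at 1.12 and Dnajb11 at -0.23, the only negative difference of the 51. Of its nucleotide exchange factors, Sil1 differed by 1.197 and Hyou1 by 0.54. The isomerase genes Pdia4 and Pdia6 (0.03 and 0.26) were nearly level between the groups, as was Sdf2l1 (0.24). Manf and Creld2, secreted products of the stress response, differed by 0.98 and 0.73. The 7 genes with the stress response element had a median difference of 1.43 with 5 of 7 higher, and the 32 without it had 1.49 with 20 of 32 higher.

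The size of this comparison depended on how cells were averaged. Ratios of arithmetic mean FPKM put 19 of 51 genes higher and 1 lower, Srp68 at -1.98, and Sec61a1 (-0.09), Spcs1 (-0.17) and Stt3a (-0.31) then lay below BEC. In 26 cells of each group matched on the number of detected genes, 24 were higher and 2 lower (Srp14 at -1.13 and Pdia4 at -1.09), with a median of 0.94 against 0.0036 over all genes. With arithmetic means the median was 0.75, against 0.077 over all genes. Shares of all genes past the limit on these settings are not given here. The difference of Tmed3 stayed between 2.17 and 6.55 under every alternative run. Markers of dissociation and heat shock did not move as one. Of 14 such markers 9 were higher in homeostatic HEC, among them Fos, Egr1, Junb and Hsp90aa1. Lower there were 2, the heat shock genes Hspa1a and Hspb1. The 14 markers had a median summed FPKM of 1669 (range 59.1 to 6770) in homeostatic HEC and 514 (19.3 to 9457) in BEC. Their part in the result was not tested.

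**Figure D2:**
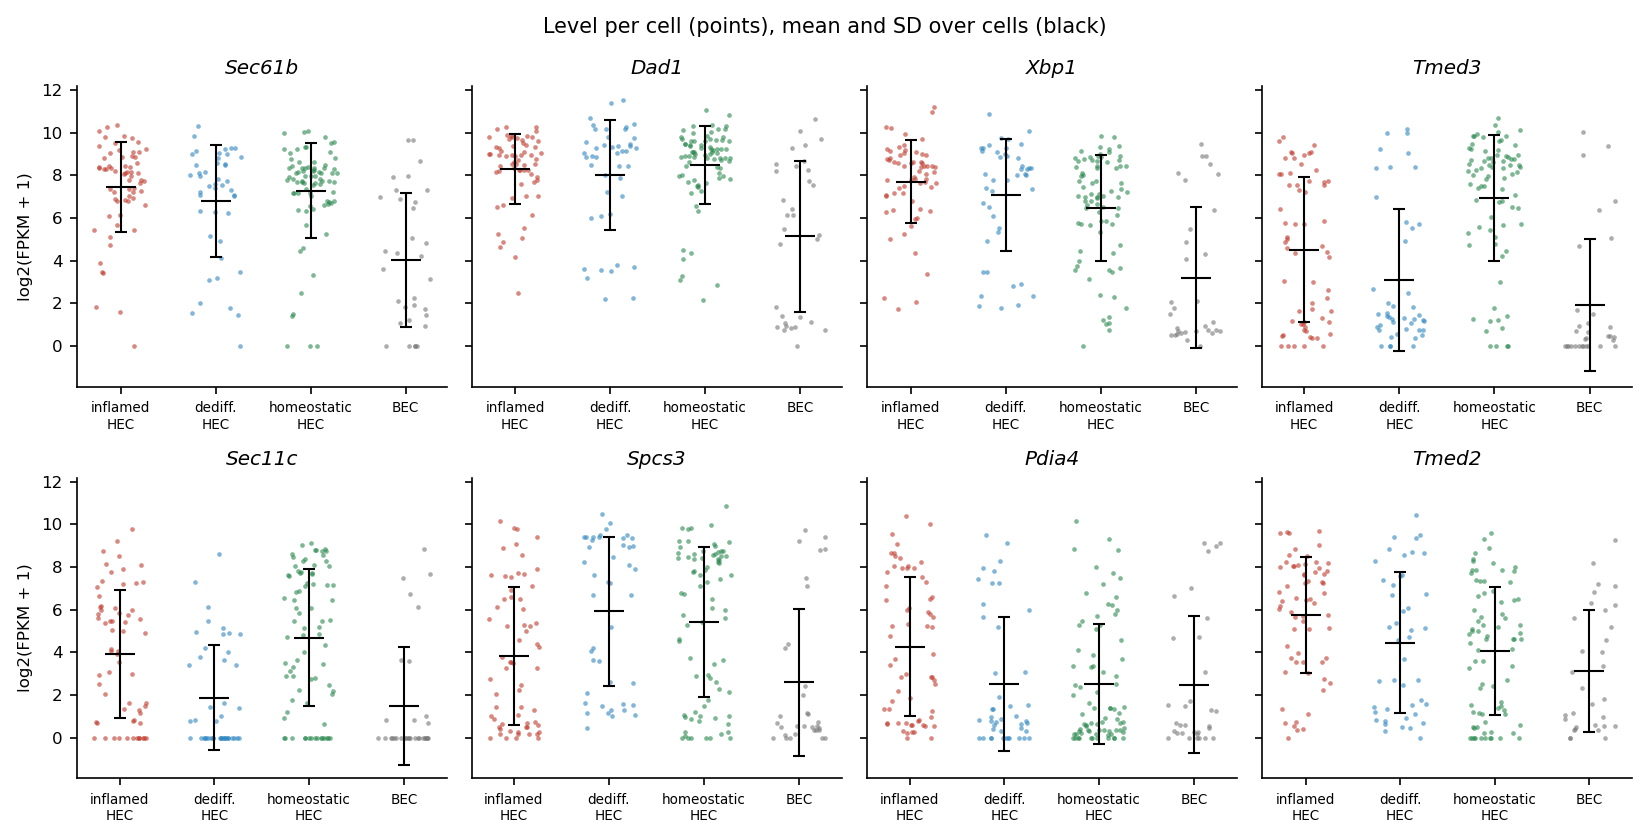
Values of log2(FPKM + 1) in each cell for 8 of the genes, by group, with the mean and SD over cells in black. Tmed3 and Sec11c are highest in homeostatic HEC, Xbp1 is highest in inflamed HEC, and cells at or near 0 occur in every group for most of these genes.

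Dedifferentiated and homeostatic HEC were compared to ask which genes differ when lymphotoxin β receptor signalling is blocked. No listed gene was higher by 1 or more, and 8 of 51 were lower. These 8 included Tmed3, Sec11c and a second signal peptidase gene, the signal recognition particle genes Srp9 and Srp14, Ssr4, Sec62 and Hspa5. No glycan transfer gene was among them. The 8 of 51 (15.7%) stand against 9.52% lower and 0.833% higher of the 9008 genes tested. Among better detected genes 8 of 41 listed genes were lower and none higher, against 23.2% and 1.88% of 2878, so the count by itself was not above that of other genes at such levels. The median difference was -0.43, or -0.14 relative to all genes tested.

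Tmed3 stood furthest from homeostatic HEC and was at percentile 0.01 of the differences of all genes tested. It had 0, 1.62 and 1159 FPKM in dedifferentiated HEC, against 0, 288 and 1634 in homeostatic HEC, with means of 3.09 ± 3.35 in dedifferentiated and 6.96 ± 2.96 in homeostatic HEC (SD over 44 and 79 cells; difference -3.86). Detection differed less, with an FPKM of 1 reached in 70.5% of dedifferentiated cells (interval 54.8 to 83.2%) and 92.4% of homeostatic cells (interval 84.2 to 97.2%). The median dedifferentiated cell, at 1.62 FPKM, lay just above that cut, so the cut does not separate loss of the transcript from a lower level. Sec11c had 0, 0.355 and 394 FPKM in dedifferentiated HEC, against 0, 35.3 and 562 in homeostatic HEC (difference -2.82, percentile 0.10). It was at 0 in 22 of 44 dedifferentiated and 15 of 79 homeostatic HEC. The alternative catalytic subunit, Sec11a, differed by -0.73. Across the alternatives run, the difference of Tmed3 stayed between -4.42 and -1.42 and that of Sec11c between -3.91 and -1.67.

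Both genes of the Srp9 and Srp14 pair, whose products bind the RNA of the signal recognition particle together, were lower. Srp9 had 0, 0.625 and 307 FPKM in dedifferentiated HEC, against 0, 20.9 and 546 in homeostatic HEC (difference -1.75). Srp14 differed by -1.17, and Srp19 by -0.997, just inside the limit. Ssr4 had 0, 198 and 1153 FPKM in dedifferentiated HEC, against 1.16, 365 and 1212 in homeostatic HEC (difference -1.42), Ssr1 and Ssr3 differed by -0.96 and -0.97, and Ssr2 by 0.06. Sec62 differed by -1.32 and Spcs1 by -1.45. In the other direction Spcs3 differed by 0.49, and it was at 1 FPKM or more in 43 of 44 dedifferentiated HEC, against 64 of 79 homeostatic HEC. Oligosaccharyltransferase genes lay between -0.50 for Ddost and 0.89 for Stt3b. Hspa5 had 1.74, 251 and 1183 FPKM in dedifferentiated HEC, against 0.9, 332 and 1341 in homeostatic HEC (difference -1.29). Xbp1 differed the other way, by 0.59, with 2.43, 265 and 1905 FPKM in dedifferentiated HEC, against 0, 132 and 926 in homeostatic HEC. Among the 7 genes with the stress response element, Hspa5 was the 1 that was lower, and their median difference was -0.40, against -0.49 over the 32 without the element.

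This comparison was sensitive to the number of detected genes, whose median was 3075 in dedifferentiated and 3842 in homeostatic HEC. With 40 cells of each group matched on that number, 5 genes were lower (Tmed3, Sec11c, Ssr4, Spcs1 and Sec62), Hspa5 at -0.90, Srp9 at -0.73 and Srp14 at -0.55 no longer were, and 6 were higher (Xbp1 at 1.82, Tmed2 at 1.60, Spcs3 at 1.56, Stt3b at 1.40, Ssr2 at 1.36 and Stt3a at 1.09). Median-ratio scaling of cells put 4 lower and 2 higher (Stt3b at 1.11 and Xbp1 at 1.09). Shares of all genes past the limit on these settings are not given here. In matched cells the median difference of the listed genes was -0.09, against -0.06 over all genes. Ratios of arithmetic means gave a median of 0.17, with Srp14 (0.05) and Sec62 (0.33) then above homeostatic HEC. Of 14 dissociation and heat shock markers 4 were lower, namely Egr1, Fos, Ier2 and Junb. The 14 had a median summed FPKM of 966 (23.6 to 9294) in dedifferentiated and 1669 (59.1 to 6770) in homeostatic HEC. Their part in the result was not tested.

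Inflamed and homeostatic HEC were compared to ask which genes differ on day 3 after the sensitiser. Most of the 51 genes differed little, and those that stood apart came from all 5 steps. Pdia4, Tmed2, Tmed9, Stt3b, Xbp1 and Ssr2 were higher, and Tmed3 and Spcs3 were lower. The 6 higher (11.8%) stand against 5.48% of the 9525 genes tested and the 2 lower (3.92%) against 2.6%. Among better detected genes 6 of 46 listed genes were higher and 2 lower, against 12.7% and 6.24% of 3397, so both shares were close to or below those of other genes at such levels. The median difference was 0.11, against 0.10 over all genes tested.

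Pdia4 (chromosome 6, bases 47796141 to 47813430, minus strand), a disulfide isomerase gene, had 0, 13 and 1358 FPKM in inflamed HEC, against 0, 1.19 and 1135 in homeostatic HEC. It reached an FPKM of 1 in 46 of 64 inflamed HEC, against 41 of 79 homeostatic HEC, and the means differed by 1.75. Its mean was 4.26 ± 3.25 in inflamed HEC, against 2.52 ± 3.12 in dedifferentiated HEC, 2.51 ± 2.83 in homeostatic HEC and 2.48 ± 3.21 in BEC (SD over cells), so that the other groups stood near one another. The related genes P4hb, Pdia6 and Pdia3 differed by 0.89, 0.26 and -0.22. Xbp1 had 2.32, 290.2 and 2348 FPKM in inflamed HEC, against 0, 132 and 926 in homeostatic HEC (difference 1.24). Its mean was thus highest in inflamed HEC (7.71 ± 1.95), then dedifferentiated (7.07 ± 2.63), homeostatic HEC (6.48 ± 2.49) and BEC (3.21 ± 3.29), where neighbours in the HEC order lay within 1 SD over cells. Hspa5 and Hsp90b1 were nearly level, at -0.06 and -0.09, while Manf differed by 0.99, just inside the limit, and Dnajb11 by 0.87. None of the 7 genes with the stress response element was higher or lower.

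The p24 cargo receptor genes differed in opposite directions in inflamed HEC. Tmed2 had 0, 85.3 and 818 FPKM in inflamed HEC, against 0, 23.5 and 769 in homeostatic HEC (difference 1.68). Tmed9 had 0, 7.47 and 332 FPKM in inflamed HEC, against 0, 3.86 and 243 in homeostatic HEC (difference 1.26). Tmed3 instead had 0, 24.1 and 884 FPKM in inflamed HEC, against 0, 288 and 1634 in homeostatic HEC (difference -2.43, percentile 0.23). Tmed10, the most evenly detected of the 4, differed by -0.19. The order of the Tmed3 means was homeostatic HEC, inflamed HEC (4.53 ± 3.40), dedifferentiated HEC (3.09 ± 3.35) and BEC, and inflamed, dedifferentiated and homeostatic cells overlapped over nearly the whole range.

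In signal peptidase, Spcs3 (chromosome 8, bases 54520433 to 54529998, minus strand) had 0, 10.5 and 1154 FPKM in inflamed HEC, against 0, 104 and 1866 in homeostatic HEC (difference -1.59). Sec11c and Spcs1 differed by -0.75 and -0.92, Sec11a by -0.08 and Spcs2 by 0.35. In glycan transfer, Stt3b had 0, 2.46 and 224 FPKM in inflamed HEC, against 0, 0 and 175 in homeostatic HEC (difference 1.24). Rpn2, Rpn1 and Ostc differed by 0.83, 0.82 and 0.69, and Stt3a by -0.15. In translocation, Ssr2 was higher by 1.02, and the other 14 genes lay between -0.50 for Ssr1 and 0.84 for Srp68. Across the alternatives run, the inflamed against homeostatic difference stayed between 1.04 and 2.35 for Pdia4, between 0.95 and 2.16 for Tmed2 and between -2.76 and -1.23 for Tmed3. The calls of genes other than Pdia4 and Tmed3 were each lost on some of these settings. With arithmetic means Tmed2 was at 0.95, Xbp1 at 0.83, Ssr2 at 0.61 and Spcs3 at -0.99. In matched cells Xbp1 was at 0.88 and Ssr2 at 0.99, and with a pseudocount of 10 Tmed9 was at 0.62 and Stt3b at 0.51. Either rescaling of cells, by median ratios or without Glycam1 and Ccl21a, put 5 genes higher and 3 lower. Shares of all genes past the limit on these settings are not given here. Of 14 dissociation and heat shock markers 7 were lower, among them Fos, Egr1, Jun, Dusp1, Fosb and Ier2. The 14 had a median summed FPKM of 367 (24.8 to 6658) in inflamed and 1669 (59.1 to 6770) in homeostatic HEC. Their part in the result was not tested. Both treated groups were set against the same homeostatic cells, so their differences are not independent of each other.

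Summed per cell, the 51 genes took a median of 1.27% of the cell's FPKM in inflamed HEC, 1.22% in dedifferentiated HEC, 1.15% in homeostatic HEC and 0.982% in BEC. Ranges over cells were wide, from 0.604% to 2.22% in inflamed HEC and from 0.426% to 1.76% in BEC. The step that differed most between homeostatic HEC and BEC was glycan transfer, with medians of 0.162% in homeostatic HEC and 0.0937% in BEC (ratio 1.73). Chaperones and folding made up the largest part in each group, at 0.497% in inflamed HEC, 0.446% in dedifferentiated HEC, 0.423% in homeostatic HEC and 0.357% in BEC. Signal peptidase went the other way in medians, at 0.0937% in homeostatic HEC and 0.114% in BEC, although all 5 of its genes had higher mean log2 levels in homeostatic HEC. In means over cells its share did not, at 0.113% in homeostatic HEC and 0.0961% in BEC. As FPKM itself rather than a share, the peptidase sum was higher in homeostatic HEC, at 686 in homeostatic HEC and 538 in BEC (ratio 1.27). The summed FPKM of a cell, by which shares are divided, had a median of 664817 in homeostatic HEC and 469532 in BEC.

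**Figure D3:**
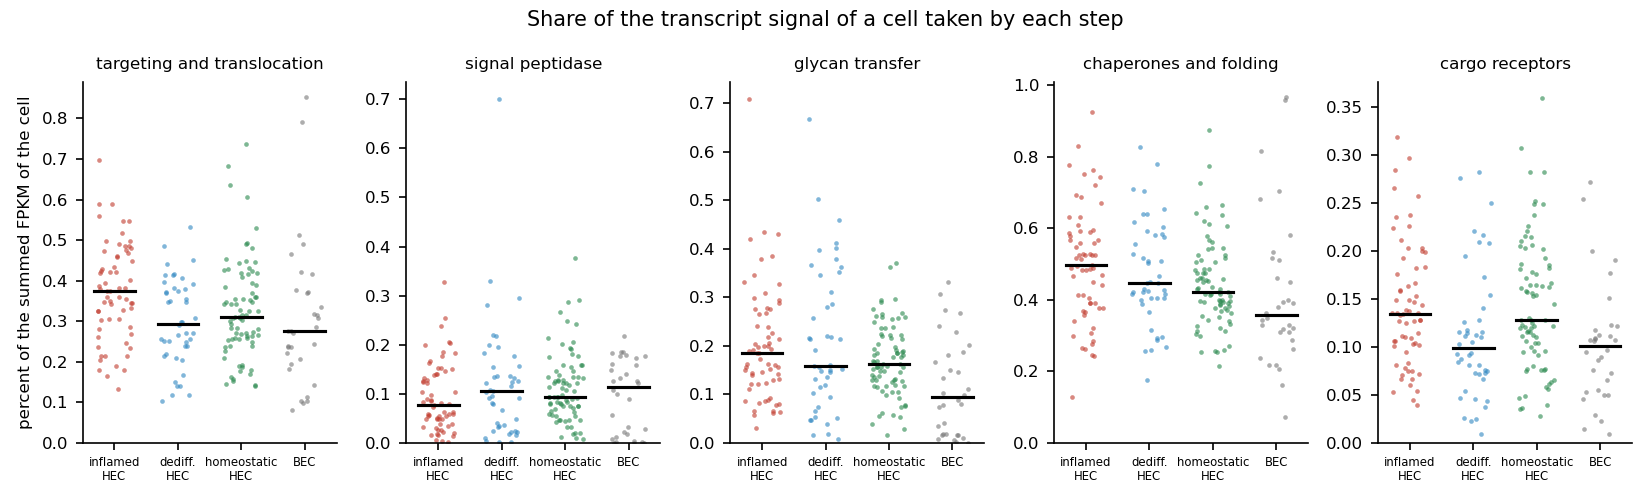
Summed FPKM of the genes of each step as a percent of the cell's summed FPKM, 1 point per cell, by group, with the median as a black bar. The median for glycan transfer is 0.162% in homeostatic HEC and 0.0937% in BEC, and cells of all groups overlap in every step.

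The relation to Glycam1 was then examined within each group, as the Spearman rho over cells between log2 levels. It is a description over cells that share their group's library work, and no p is given. Glycam1 itself had a lowest, median and highest FPKM of 207, 6349.5 and 115345 in inflamed and 127, 7027 and 127279 in dedifferentiated HEC, against 49.6, 59091 and 295547 in homeostatic HEC. In BEC these were 32.8, 66.2 and 594, so that homeostatic HEC stood highest and the highest BEC lay within the lower range of every HEC group. The median rho of the listed genes was near 0 in each group. It was -0.03 over 51 genes in inflamed HEC, 0.04 over 49 in dedifferentiated HEC, 0.07 over 50 in homeostatic HEC and -0.04 over 46 in BEC, over genes with an FPKM of at least 1 in 20% of that group's cells. The summed share of the 51 genes in the cell's FPKM, whose denominator holds Glycam1, had a rho with it of -0.30 in inflamed, -0.06 in dedifferentiated and 0.0047 in homeostatic HEC and 0.20 in BEC. Over all genes so detected the medians of single genes were -0.02 in inflamed, 0.01 in dedifferentiated and -0.01 in homeostatic HEC and -0.05 in BEC. Glycam1 was also nearly unrelated to the number of genes detected, with rho of 0.03 in inflamed, 0.02 in dedifferentiated and -0.03 in homeostatic HEC and -0.10 in BEC.

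In homeostatic HEC, 5 of 50 listed genes had a rho of 0.3 or more, against 1.4% of 6482 genes. The highest was Tmed3, with rho 0.42 and Pearson r 0.45 over 79 cells, and 0.40 without the 2 cells farthest from the median Glycam1 level. Ssr4 had rho 0.40 (r 0.43, and 0.35 without the 2 farthest cells), and Sil1 had 0.38 (r 0.34, and 0.37). Sil1 reached an FPKM of 1 in only 39.2% of these cells. Tmed9 (0.31) and Sec11c (0.30) lay at the limit and dropped to 0.29 and 0.28 without cells carrying markers of another type. No listed gene had a rho of -0.3 or less here, against 2.11% of all, nor in inflamed or dedifferentiated HEC, against 2.23% and 2.89%. Apart from the value without the 2 farthest cells, Tmed3 stayed between 0.42 and 0.45 on the settings run, among them values rescaled to leave out Glycam1 and Ccl21a and with the number of detected genes taken out. Xbp1 and Hspa5 had rho of 0.06 and 0.07.

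In treated HEC other listed genes stood highest in this order, apart from Sec11c, which was at 0.3 or more in inflamed as in homeostatic HEC. In inflamed HEC, 2 of 51 listed genes had a rho of 0.3 or more, against 2.02% of 6897, namely Sec11c with 0.46 over 64 cells (r 0.43, and 0.52 without the 2 farthest cells) and the co-chaperone gene Dnajb9 with 0.43 (r 0.43, and 0.42). Tmed3 and Ssr4 there had rho of 0.11 and -0.16. In dedifferentiated HEC, 4 of 49 did, against 3.79% of 5093, with Dnajc3 at 0.43, Tmed2 at 0.41, Sec61g at 0.31 and P4hb at 0.30 over 44 cells. Tmed3 and Sec11c there had rho of -0.12 and -0.17. In BEC, where Glycam1 was low throughout, 3 of 46 had 0.3 or more, against 3.06% of 5090. These were Canx at 0.49, Ssr3 at 0.38 and Ssr4 at 0.32 (r 0.28). Ssr4 was thus past 0.3 in BEC as in homeostatic HEC. Another 3 had -0.3 or less, against 8.49%, the lowest being Sec11c at -0.51 over 32 cells. Sec11c reached an FPKM of 1 in only 25% of these BEC, so its value rests on few cells. With these numbers of cells and many values at 0, weak correlations carry little information, and differences in rho between groups were not tested.

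**Figure D4:**
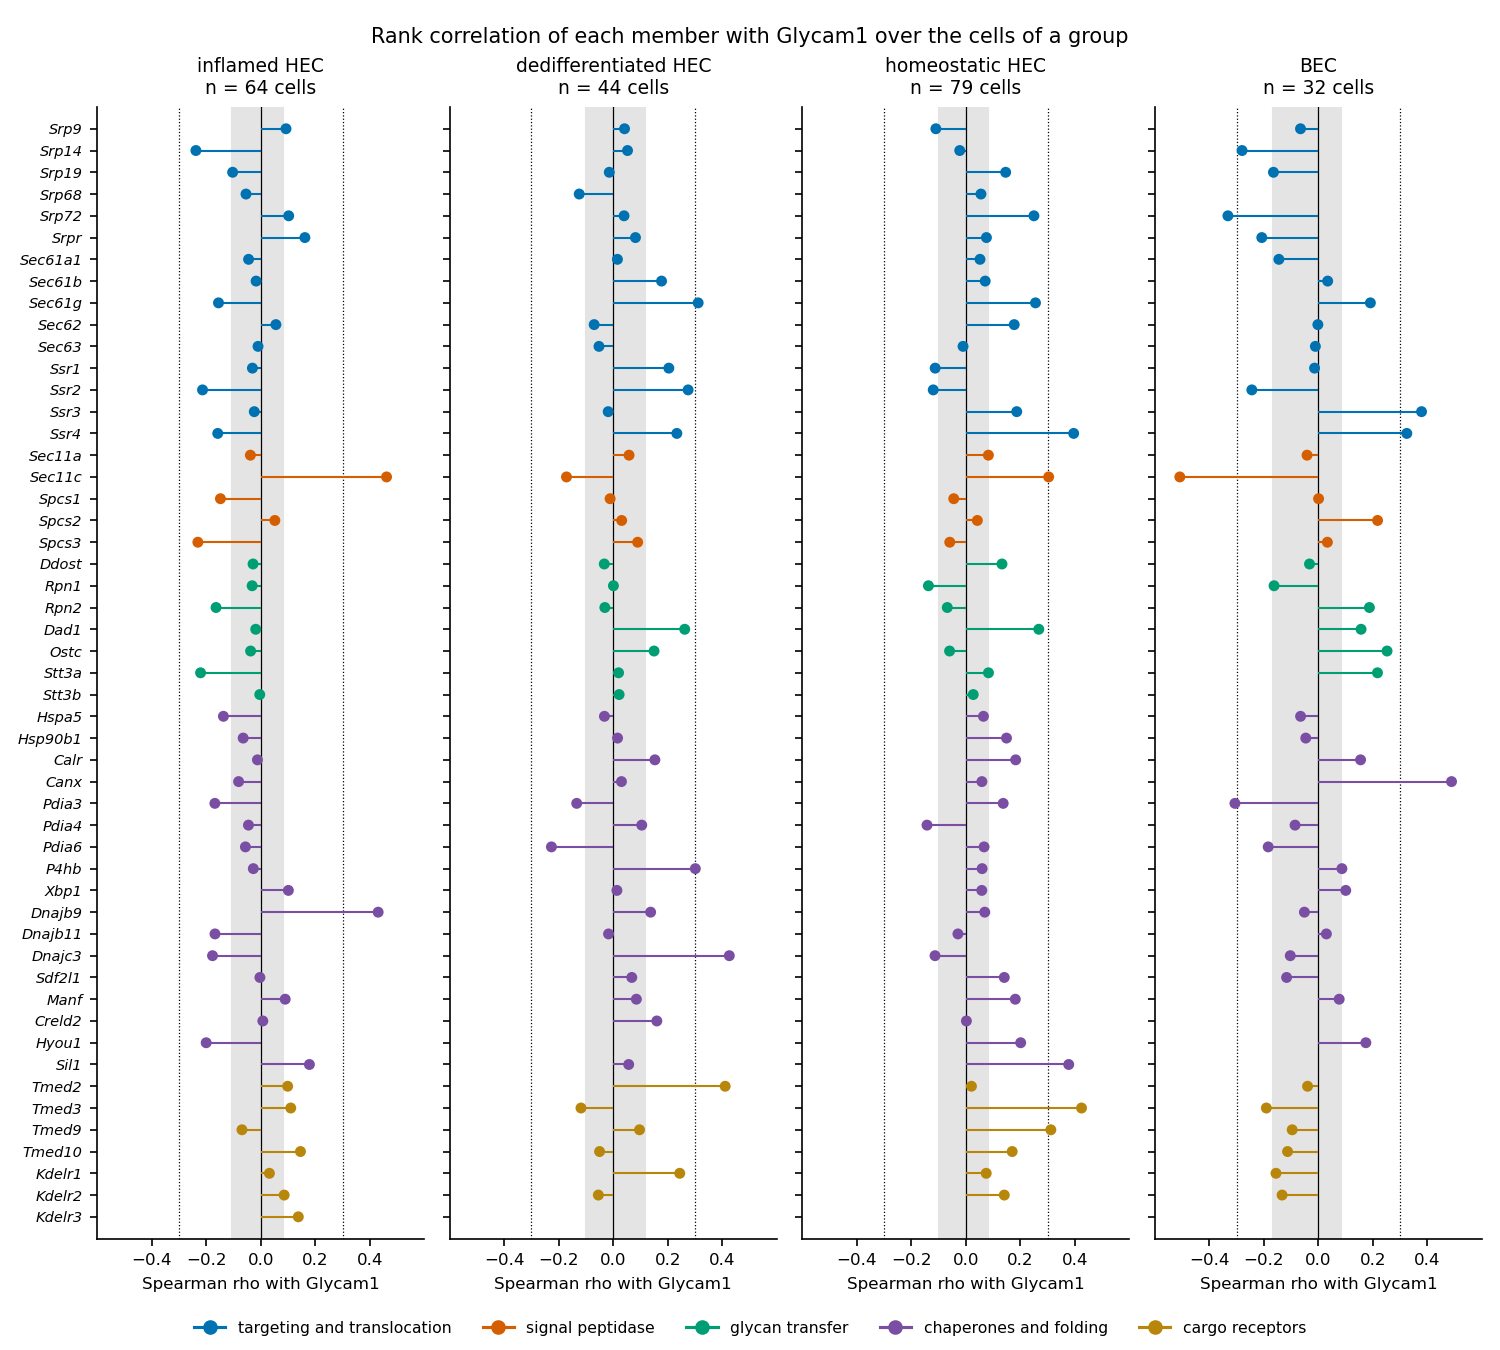
Spearman rho over cells between each of the 51 genes and Glycam1, by group, with the middle 50% of all genes tested as a grey band and dotted lines at -0.3 and 0.3. Most listed genes lie between -0.3 and 0.3 in every group, with Tmed3 and Ssr4 to the right in homeostatic HEC and Sec11c to the right in inflamed HEC. In BEC Canx, Ssr3 and Ssr4 lie to the right and Sec11c to the left.

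**Figure D5:**
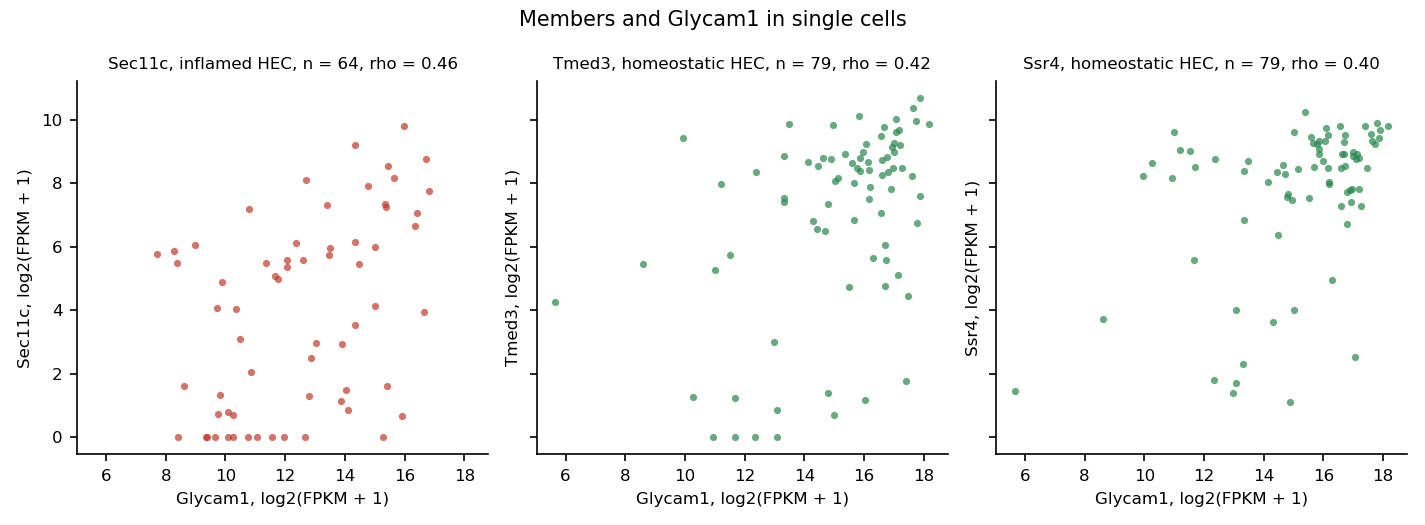
Levels of Sec11c in the 64 inflamed HEC, and of Tmed3 and Ssr4 in the 79 homeostatic HEC, against Glycam1 in the same cell, all as log2(FPKM + 1), with 1 point per cell. The points slope upwards with wide scatter in each panel, with rho of 0.46, 0.42 and 0.40.

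Correlations among the listed genes from cell to cell were also mostly near 0. With many values at 0, low correlations do not show that genes vary independently. The median rho over all pairs of listed genes was 0.06 in inflamed HEC, 0.06 in dedifferentiated HEC, 0.06 in homeostatic HEC and 0.08 in BEC, and over pairs of all genes it was 0.03 in inflamed, 0.03 in dedifferentiated and 0.04 in homeostatic HEC and 0.07 in BEC. In homeostatic HEC 1.63% of 1225 pairs had a rho of 0.3 or more, against 1.55% of pairs of all genes, and the highest was Sec61g with Tmed3 at 0.46. In inflamed HEC the highest was Sec61a1 with Spcs2 at 0.48, and in dedifferentiated HEC Ssr4 with Calr at 0.57. Of pairs whose products work together, Rpn1 and Stt3b, both of oligosaccharyltransferase, had 0.40 in homeostatic HEC, among the highest there. The next pairs lay further below the highest value of their group. Hspa5 and Hsp90b1 had a rho of 0.29 in inflamed, 0.40 in dedifferentiated and 0.10 in homeostatic HEC, and Xbp1 and Hspa5 had -0.01 in inflamed, -0.12 in dedifferentiated and -0.14 in homeostatic HEC.

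Other genes of the pathway, from lists that hold none of the 51, were then examined against the shares over all genes tested. In homeostatic HEC against BEC these shares were 17% higher and 4.4% lower, or 38% and 9.02% of better detected genes, and several of the counts that follow lie near or below them. There 5 of 13 further translocon and targeting genes were higher, among them Tram1 (2.20) and Naca (1.27). Of further glycan transfer and trimming genes 4 of 13 were higher, led by the oligosaccharyltransferase subunit gene Tmem258 (3.15). Of oxidative folding and prolyl isomerase genes 2 of 10 were higher, Fkbp2 (3.84) and Fkbp11 (1.25). Of unfolded protein response regulators 3 of 12 were higher, Ppp1r15a (3.26), Creb3 (1.62) and Atf4 (1.59), and of degradation genes of the organelle 6 of 13, led by Edem2 (1.94). Of genes of the COPII coat, which carries cargo out, 5 of 16 were higher, among them Tfg (2.44) and Sec31a (2.26). Of genes of the COPI coat, which brings residents back, 8 of 16 were higher, led by Copz1 (3.10), and 1 was lower, the p24 gene Tmed1 (-1.23). None in the other 6 lists was lower.

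In dedifferentiated against homeostatic HEC none of these genes was higher, and of all genes tested 9.52% were lower, or 23.2% of better detected ones. Lower were 5 of 16 COPII genes, with Sec31a (-1.67), Sar1a (-1.40) and Surf4 (-1.22) first, 3 of 12 glycan transfer genes, with Tmem258 first (-2.14), and 2 of 16 COPI genes, Ergic3 (-1.71) and Arcn1 (-1.39). Of the regulators Ppp1r15a was lower (-2.34), of the degradation genes Herpud1 (-1.94), of the folding genes Txndc11 (-1.02), and none of 13 translocon genes. In inflamed against homeostatic HEC, where 5.48% of all genes tested were higher and 2.6% lower, the folding genes Ero1l (1.22) and P4ha1 (1.01) were higher and Fkbp2 (-1.24) lower. Ppp1r15a (-3.70), Creb3 (-1.004), Herpud1 (-2.45) and Ergic3 (-1.52) were lower too, and no translocon, glycan transfer or COPII gene passed the limit. Ppp1r15a and Herpud1, targets of stress signalling, were thus lower in both treated groups while Xbp1 stood at or above its homeostatic level. Listed chaperone and folding genes were mixed. In inflamed HEC Pdia4 differed by 1.75, Manf by 0.99, Hspa5 by -0.06 and Dnajb9 by -0.75. In dedifferentiated HEC Pdia4 differed by 0.0049, Manf by 0.21, Hspa5 by -1.29 and Dnajb9 by -0.38. Of the regulators 1 of 12 was lower in dedifferentiated and 2 of 12 in inflamed HEC, and of the degradation genes 1 of 13 in each. Of 14 dissociation and heat shock markers 4 and 7 were lower in these groups, and their part was not tested. The same homeostatic cells served both comparisons.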

How the data were processed

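The authors deposited 1 table of FPKM values for 24049 gene symbols in 220 cells. The build mm10 and the tools CASAVA 1.8 and RSEM 1.2.18 are named per the submitters' processing notes, without their roles, the annotation, strand handling or any filter on cells. Cells were grouped by title, condition and treatment in the labels. No count model was run on these FPKM. From the deposited FPKM, means of log2(FPKM + 1) and their differences were computed with Python 3.11.15, NumPy 2.4.6, pandas 2.3.3 and SciPy 1.17.1, and the steps were tested on simulated data. The pseudocount understates differences of low genes. Genes tested had an FPKM of 1 or more in over 10% of the cells of either group compared. Depth per cell was approximated over 2975 single-transcript genes, and amplified reads are not independent molecules. The 51 genes, 7 pathway lists and 11 marker lists were chosen with earlier results of these data known, and all 51 and list genes past the limit (at most 6 a list) could be named. Gene positions are from GENCODE (GRCm38). No doublet caller was run. Alternatives covered the pseudocount, the filter, scaling, averaging, the cells used and the limit.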

Additional observations from a re-analysis of the deposited data

How the results depend on the processing

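Of 156 values recomputed under alternatives for the main results, 127 stayed near their value. For ratios of step sums near 1 and for median correlations near 0, this allowed a change of direction. Counts and ratios of step sums could also change by a set fold and still be taken as near. The fall in genes higher in homeostatic HEC against BEC in matched cells, given above, was taken as near in this way. The median signal peptidase sum in dedifferentiated HEC was above that of homeostatic HEC as a share (0.105% against 0.0937%) but below it as FPKM (661 against 686). Genes higher in homeostatic HEC against BEC, 33 in the main analysis, numbered 19 with arithmetic means and 18 at a difference of 2. Genes lower there, 0 in the main analysis, numbered 1 with arithmetic means and 2 in matched cells. Their median difference of 1.34 became 1.87 with a pseudocount of 0.1, 0.91 with a pseudocount of 10, 1.84 over genes at an FPKM of 1 in 50% of cells, 1.03 with median-ratio scaling, 0.75 with arithmetic means and 0.94 in matched cells. In single genes, arithmetic means gave -0.085 for Sec61a1, -0.17 for Spcs1 and -0.31 for Stt3a, and matched cells gave -0.10 for Srp72 and -0.12 for Spcs1. Genes near 0 in the main analysis that passed the limit with the opposite sign were Srp68 at -1.98 with arithmetic means, Srp14 at -1.13 and Pdia4 at -1.09 in matched cells and, in dedifferentiated against homeostatic HEC, Sil1 at 1.07 with arithmetic means. In dedifferentiated against homeostatic HEC, the 0 higher became 1 with a pseudocount of 0.1, 2 with median-ratio scaling, 3 with arithmetic means and 6 in matched cells. The 8 lower became 17 with a pseudocount of 0.1, 3 with a pseudocount of 10, 4 with median-ratio scaling, 4 with arithmetic means, 5 in matched cells and 2 at a difference of 2. The median of -0.43 became -0.031 with median-ratio scaling, -0.088 in matched cells and 0.17, the opposite sign, with arithmetic means, where Srp14 was at 0.046 and Sec62 at 0.33. In inflamed against homeostatic HEC, the 6 higher became 11 with a pseudocount of 0.1, 2 with a pseudocount of 10 and 0 at a difference of 2, and the 2 lower became 4 with a pseudocount of 0.1 and 1 at a difference of 2. The ratio of median signal peptidase shares between homeostatic HEC and BEC, 0.82, became 1.27 as FPKM itself. The counts at a difference of 2 fall by construction. Shares of all genes past the limit are not given for these alternative counts. The peptidase share differs from its FPKM sum only by division by the cell's summed FPKM. For the other shifts the cause was not tested. Median-ratio scaling moved the median of all genes to 0.08 from 0.28 in homeostatic HEC against BEC and to -0.14 from -0.30 in dedifferentiated against homeostatic HEC. The median correlations with Glycam1 moved little under any alternative run. Matched cells were 26, 40 and 60 of each group in the 3 comparisons. No paired analysis was possible because the shared replicate numbers only count cells within a group and no result comes from a test. Leaving out single cells was not run, as each group has more than 5. A group is 1 sample, so differences between mice cannot be told apart from differences between conditions, nor can the day or chip of capture. Transcripts below about 1 FPKM in a cell of this depth were often listed at 0, which does not show absence.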

Other observations

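Within 2 enzyme pairs of the list the members were detected in different numbers of cells. Of the catalytic signal peptidase genes, Sec11c was at 0 in 12 of 64 inflamed HEC, 22 of 44 dedifferentiated HEC, 15 of 79 homeostatic HEC and 21 of 32 BEC, while Sec11a was at 0 in 5 of 64 inflamed HEC, 4 of 44 dedifferentiated HEC, 7 of 79 homeostatic HEC and 10 of 32 BEC. Their rank correlation over cells was -0.04 in inflamed, 0.19 in dedifferentiated and 0.20 in homeostatic HEC. Of the catalytic oligosaccharyltransferase genes, Stt3b reached an FPKM of 1 in 36 of 64 inflamed, 17 of 44 dedifferentiated and 24 of 79 homeostatic HEC, and Stt3a in 48 of 64 inflamed, 36 of 44 dedifferentiated and 60 of 79 homeostatic HEC. Hyou1, a nucleotide exchange factor of BiP, was among the chaperone genes of low median level, with medians of 0.47 FPKM in inflamed, 0 in dedifferentiated and 0.4 in homeostatic HEC. None of these values was tested.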
